A study of Mus musculus with 4 samples.

Results

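Barcodes taken as fibroblast and tendon-like cells were a small class in the epiphyses of tibia and femur, 1011 of 30952 kept cell barcodes (3.27%). In 96 of these Pi16 was the highest gene of the rule below and most held neutrophil RNA. Without those 96 the class held 915 barcodes (2.96%). All 1011 were taken by a rule on 8 genes applied to each barcode. Values are in UMIs (unique molecular identifiers, 1 for each captured RNA molecule) per 10000 UMIs of that barcode. A member had no UMI of Ptprc, which encodes the leukocyte antigen CD45. It had under 150 UMIs per 10000 of Col2a1, the main cartilage collagen, and a sum of Dpt, Clec3b, Mfap5, Pi16, Scx and Tnmd of 5 or more. These 8 genes chose the members, so their levels, and every comparison of members with other barcodes, are a description with no test. The cells came from tibial and femur epiphyses, the ends of the long bones, of mice labelled Sox9fl:fl AcanCreERT2/+ at postnatal day 13 and at postnatal day 19, and of wild type mice at the same 2 ages. There was 1 library for each genotype and age. In the labelled mutant, Sox9 is flanked by loxP sites and the tamoxifen-inducible recombinase is driven from the aggrecan gene, which is active in cartilage. The wild type libraries carry neither allele by their label. The design text for the series speaks instead of 3-month-old animals and adds a Sox8 and Sox9 mutant, and groups here go by the label of each sample. The sources used here do not give the tamoxifen schedule, the deleted exons, the strain, the sex or the number of animals per library. The mutant libraries gave 312 and 275 members at days 13 and 19, and the wild type libraries gave 333 and 91. Paired values below stand in the order day 13, day 19 unless the ages are named.

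Fibroblasts of loose connective tissue secrete the collagens, microfibrils and proteoglycans that surround muscles, vessels and joints. Dpt (dermatopontin), Clec3b (tetranectin) and Mfap5 (a microfibril component) are known from such cells in many organs, and Pi16 is known from a CD34-positive fibroblast type near vessels. Tendon and ligament cells lay down aligned collagen I. Their fate depends on Scx, a basic helix-loop-helix transcription factor, and Tnmd, a membrane glycoprotein, is a late marker of the lineage that needs Scx in the mouse. Sox9 is needed to form and keep cartilage, and the cells that attach tendon to bone arise in the mouse from progenitors that express both Scx and Sox9.

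Tnmd and Dpt were the highest of the 6 genes in the most members, 360 and 252 of 1011, so the DNA before and at their start sites is shown here. Capitals mark CANNTG, the core letters of the E-box to which basic helix-loop-helix factors bind, which reads the same on both strands. Each window runs from 250 bases before the annotated start to 50 bases after it, 5′ to 3′, from RefSeq on GRCm38.p6.
Tnmd, chrX:133850758-133851057, plus strand: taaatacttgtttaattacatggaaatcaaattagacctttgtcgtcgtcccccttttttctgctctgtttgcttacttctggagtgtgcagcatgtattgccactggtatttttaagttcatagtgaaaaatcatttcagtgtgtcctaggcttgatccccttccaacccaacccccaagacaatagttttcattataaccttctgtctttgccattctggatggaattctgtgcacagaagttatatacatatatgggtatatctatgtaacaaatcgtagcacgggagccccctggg
Dpt, chr1:164796413-164796712, plus strand: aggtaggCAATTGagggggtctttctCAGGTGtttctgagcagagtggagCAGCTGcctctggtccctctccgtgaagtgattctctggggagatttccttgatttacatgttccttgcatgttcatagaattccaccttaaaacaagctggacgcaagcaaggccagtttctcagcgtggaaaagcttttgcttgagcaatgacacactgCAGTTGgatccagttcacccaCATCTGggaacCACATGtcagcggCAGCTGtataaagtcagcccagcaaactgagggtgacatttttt
The Tnmd window held 0 copies and the Dpt window held 7. Of 32851 windows of 300 bases in the same table, 72.3% held at least 1 copy, the median was 1 copy, and 0.177% held 7 or more. These letters were counted only, and binding at them was not measured.

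The members fell into 3 sets by their highest gene. Dpt, Clec3b or Mfap5 led 514 members, and Tnmd or Scx led 401. Pi16 led the remaining 96. In the mutant libraries the Dpt, Clec3b or Mfap5-led set held 156 and 141 members, against 159 and 58 in wild type. The Tnmd or Scx-led set held 131 and 79 members in the mutant libraries, against 166 and 25 in wild type. Pi16 led 25 and 55 members in the mutant libraries, against 8 and 8 in wild type, which is 8.01% and 20% of mutant members and 2.40% and 8.79% of wild type members.

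**Figure D1:**
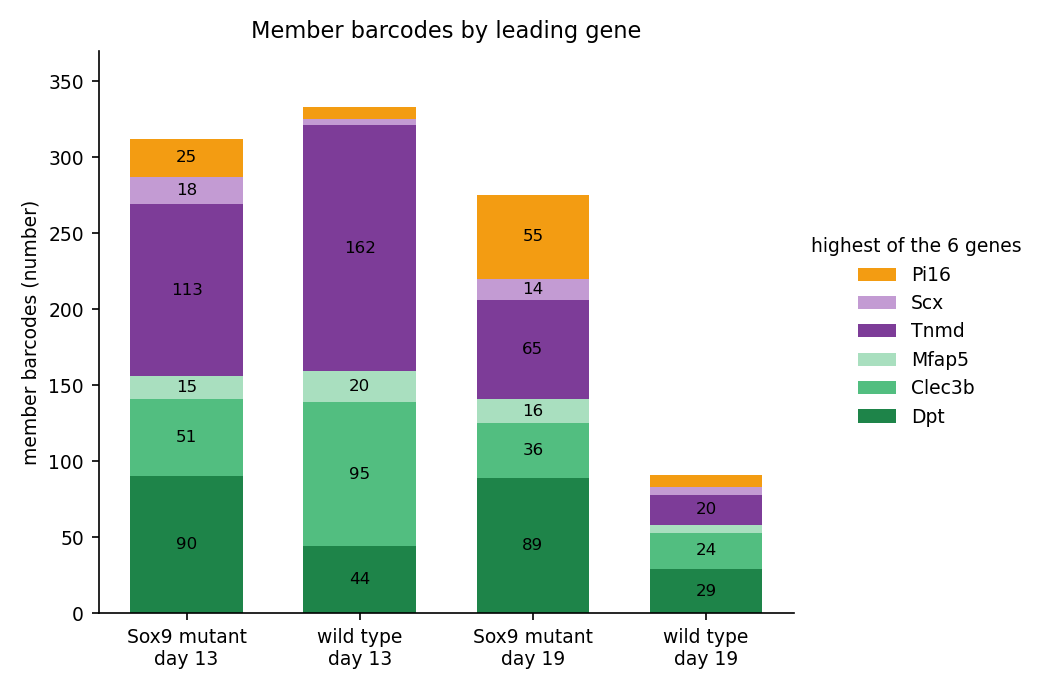
Number of member barcodes in each library (vertical axis), stacked by which of the 6 genes was highest in the barcode, with the mutant bar left of the wild type bar at each age. The wild type library at day 19 gave 91 members, the fewest, and Pi16 led 55 of the 275 members of the mutant library at day 19.

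The genes within the first and second sets occurred together in single barcodes. Dpt and Clec3b were both present in 372 members, which is 71.5% of the members with Dpt and 78.0% of those with Clec3b. Mfap5 came with Clec3b in 89.1% of its barcodes and with Dpt in 86.9%. Scx and Tnmd were both present in 252 members, which is 77.8% of the members with Scx and 59.0% of those with Tnmd. Over all members, 334 held UMIs of 1 of the 6 genes, 346 of 2, 275 of 3, 47 of 4, 9 of 5 and 0 of all 6.

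The Pi16-led barcodes went against the label. In 82 of the 96 the neutrophil genes S100a8 and S100a9 summed to 200 or more UMIs per 10000 (85.4%), against 9 of the other 915 members (0.984%). Summed over the set, S100a8, a calcium-binding protein of neutrophils, was at 68363 and 74068 CPM in the mutant libraries and 49642 and 36903 CPM in wild type, where CPM is UMIs per 1000000 UMIs summed over the set. Retnlg, a secreted neutrophil protein, was at 16989 and 25855 CPM in the mutant libraries and 22174 and 16018 CPM in wild type. Of genes outside the rule, the fibroblast surface genes Cd34 and Ly6a were at 0 CPM in all 4 libraries of this set. Collagen genes did not run the same way in every library. Col1a1 plus Col3a1 reached 20 or more UMIs per 10000 in 16 of 25 and 4 of 55 Pi16-led barcodes of the mutant libraries, against 0 of 8 and 0 of 8 in wild type. The other rule genes were low by the choice of the set, with Dpt, Clec3b, Mfap5 and Tnmd at 0 CPM. Pi16 shared a barcode with Dpt in 8 of its 107 members, with Clec3b in 6 and with Mfap5 in 5. A UMI of Pi16 was also found in 33.0% of 2932 barcodes taken as neutrophils from S100a8 and S100a9 at 200 or more with Col2a1 under 150. In those neutrophil barcodes Dpt was found in 0.989%, Clec3b in 0.341%, Mfap5 in 0.136%, Scx in 1.02% and Tnmd in 0.784%. The median Pi16-led barcode held 1386 and 1478 UMIs in the mutant libraries, against 1624 and 1400 in wild type, so 1 UMI of Pi16 was enough in the median barcode to pass the limit of 5 per 10000. The Pi16-led barcodes are named by their rule gene here and not as fibroblasts, and counts are also given without them, for 915 members.

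The other 2 sets differed in genes that the rule had not used. In the Tnmd or Scx-led set Col1a1, the main chain of collagen I, was at 63870.2 and 41940.3 CPM in the mutant libraries and 82209 and 39848 CPM in wild type. In the set led by Dpt, Clec3b or Mfap5 it was at 17199 and 11412 CPM in the mutant libraries and 15909.8 and 8182 CPM in wild type. Collagen III ran the other way at each age and genotype. In the Dpt, Clec3b or Mfap5-led set Col3a1 was at 12639 and 10672 CPM in the mutant libraries and 14905 and 13242 CPM in wild type, and in the set led by Tnmd or Scx it was at 6516 and 7085 CPM in the mutant libraries and 4882 and 9558 CPM in wild type. Fmod (fibromodulin) is a proteoglycan that binds collagen I. In the Tnmd or Scx-led set it was at 6131 and 4833 CPM in the mutant libraries and 7213 and 5906 CPM in wild type, and in the set led by Dpt, Clec3b or Mfap5 at 989 and 1038 CPM in the mutant libraries and 876 and 357 CPM in wild type. Thbs4, a thrombospondin of tendon, was at 1795 and 2240.3 CPM in the mutant libraries and 1954 and 3791 CPM in wild type when Tnmd or Scx led, and at 377 and 810.0 CPM in the mutant libraries and 546 and 317 CPM in wild type when Dpt, Clec3b or Mfap5 led. Cd34 was at 232 and 227 CPM in the mutant libraries and 420.1 and 414 CPM in wild type when Dpt, Clec3b or Mfap5 led, and at 4.78 and 9.44 CPM in the mutant libraries and 7.29 and 16.8 CPM in wild type when Tnmd or Scx led. Not every gene of the 2 lists ran with its list. Col15a1 of the fibroblast list was at 794 and 525 CPM in the mutant libraries and 1105 and 939 CPM in wild type when Tnmd or Scx led, and at 347 and 270.4 CPM in the mutant libraries and 446 and 309 CPM in wild type when Dpt, Clec3b or Mfap5 led. Col14a1 of the tendon list was at 963 and 557 CPM in the mutant libraries and 892 and 1217 CPM in wild type when Dpt, Clec3b or Mfap5 led, and at 298 and 162 CPM in the mutant libraries and 255 and 632 CPM in wild type when Tnmd or Scx led. The sets were cut from genes of these same cells, so the differences between sets describe them and are not tested.

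**Figure D2:**
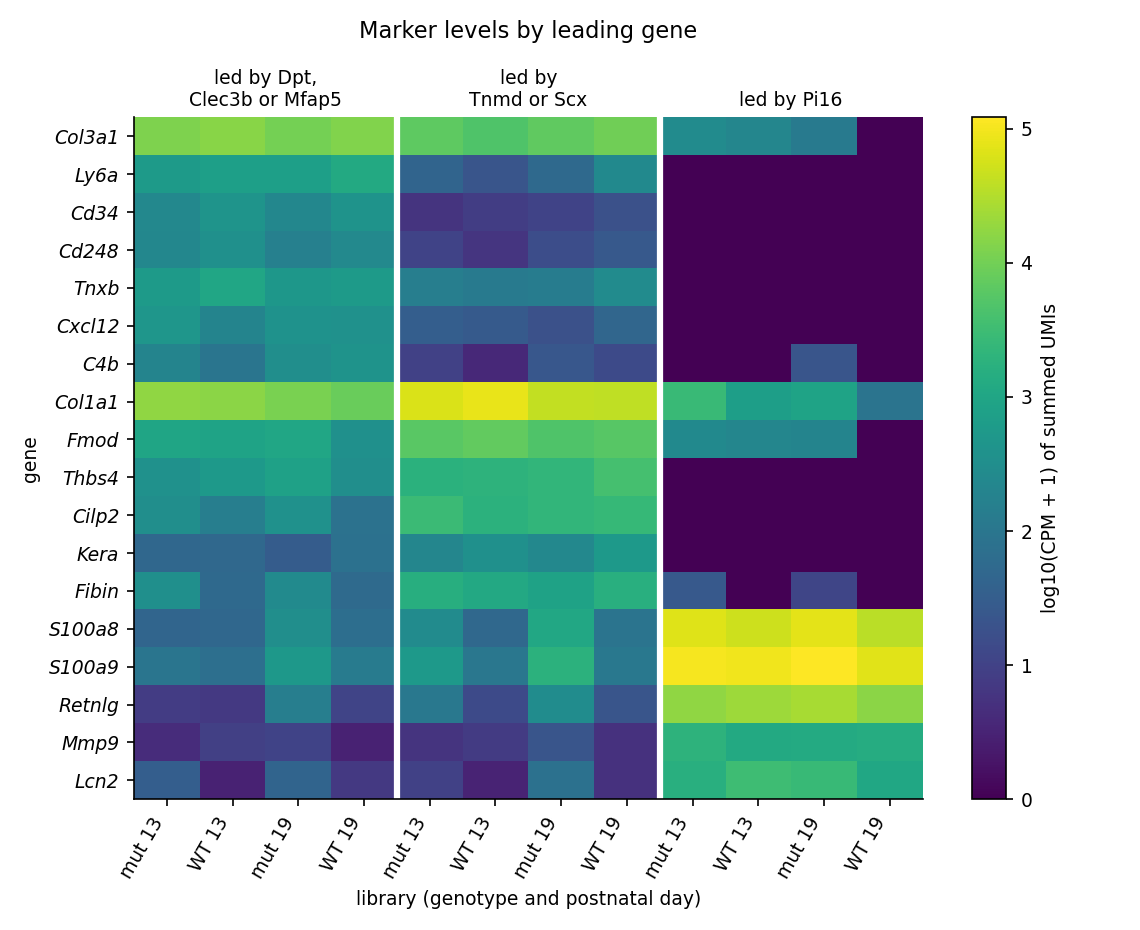
Level of marker genes (rows) in member barcodes grouped by leading gene and library (columns), as log10(CPM + 1) of summed UMIs, with mutant columns left of wild type columns at each age. The neutrophil genes are bright in the Pi16-led columns, where Ly6a, Cd34 and Thbs4 are at 0 CPM, and Fmod, Thbs4, Cilp2 and Kera are brightest in the Tnmd or Scx-led columns.

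Set beside 9242 chondrocyte barcodes (no Ptprc UMI, Col2a1 at 150 or more), the members were highest in genes of the connective tissue around cartilage. Serping1, the inhibitor of the first complement component, had a log2 ratio of members over chondrocyte barcodes of 6.98 or more in every library. The smallest ratio over the 4 libraries was 6.09 for Kera (keratocan, a small leucine-rich proteoglycan), 5.49 for Cd34 and 5.43 for Tnxb (tenascin X). It was 5.17 for Ltbp4, which binds latent TGF-β, 5.09 for Angptl7, a secreted angiopoietin-like protein, and 4.92 for Thbs4. The remaining genes of the 12 ranked first were Ecm1, Aspn, Fbln2, Col5a3 and Igfbp6. A second comparison was made with 4596 other collagen-rich barcodes, which had no Ptprc UMI, Col2a1 under 150, a sum of the 6 genes under 5, and Col1a1 plus Col3a1 at 20 or more. Against these the smallest log2 ratio was 3.58 for Kera, 3.37 for Angptl7 and 3.15 for Tnxb. It was 2.98 for Ccn3, a matricellular protein, 2.91 for Thbs4, 2.84 for the growth factor Igf1 and 2.74 for the proteoglycan Vcan. Mfap4, Igfbp6, Fbn1, Ly6a and Ssc5d made up the rest of the 12.

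Values near the limits of the rule show what lies on either side. The 90 members with a sum of 5 to 6 had a median Col2a1 of 23.0 and a median Col1a1 of 21.6 UMIs per 10000. The 98 barcodes left out at a sum of 4 to 5 had medians of 35.9 for Col2a1 and 24.6 for Col1a1. The 24 members with Col2a1 of 120 to 150 had a median sum of 8.35, against 9.36 in the 29 barcodes left out at 150 to 180. Members at a single UMI of the 6 genes made up 13.8% and 24% of mutant members, and 3.6% and 17.6% of wild type members.

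The share of members among kept barcodes differed in opposite directions at the 2 ages under this rule, and the direction at day 13 depended on cartilage-rich members. At day 13 it was 4.2% (95% interval 3.75% to 4.68%) in the mutant library, against 5.25% (95% interval 4.72% to 5.83%) in wild type. At day 19 it was 2.77% (95% interval 2.45% to 3.11%) in the mutant library, against 1.26% (95% interval 1.01% to 1.54%) in wild type. The mutant minus wild type difference at day 13 turned to 1.26 percentage points with Col2a1 under 20 and to 2.16 without cartilage-rich members, so that the mutant share was then higher at both ages. The intervals are exact Clopper-Pearson intervals and cover counting error only, and with 1 library per genotype and age there is no test. The kept barcodes of the 4 libraries differed in makeup: chondrocyte barcodes numbered 1966 and 1805 in the mutant libraries, against 4408 and 1063 in wild type. Over barcodes with no Ptprc UMI the shares were 5% and 3.84% in the mutant libraries, against 5.87% and 1.77% in wild type. Over Ptprc-free barcodes that also passed the Col2a1 limit they were 7.29% and 5.14% in the mutant libraries, against 26.4% and 2.23% in wild type. The library and the genotype cannot be told apart in these shares.

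RNA of genes typical of other cells was present in members at unequal levels between libraries. The sum of 9 cartilage genes reached 10 or more UMIs per 10000 in 36.2% and 32.7% of mutant members, against 90.1% and 27.5% of wild type members. The 18-gene cartilage matrix list summed to 11108 and 10938 CPM in the mutant libraries, against 10817 and 7213 CPM in wild type. That list holds Col2a1, a gene of the rule, and Comp, which is also on the tendon list. Its sum therefore does not measure RNA of cartilage cells alone. The sum of 4 neutrophil genes reached 20 or more in 8.65% and 20% of mutant members, against 2.7% and 7.69% of wild type members. Hbb-bs, a haemoglobin chain of red cells, was at 925 and 8334 CPM in the mutant libraries, against 3188 and 19722 CPM in wild type. The wild type library at day 19 also held Elane and Mpo, granule enzymes of neutrophil precursors, at 274 and 331 CPM, where no other library passed 2.77 CPM for Elane or 6.22 CPM for Mpo. The part of such RNA in the differences below was not tested, except where a value without those barcodes is given. Depth was 70507107 to 76080803 UMIs per library and no member shared its barcode sequence with a member of another library.

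The genes of the rule themselves differed in level among the libraries. Tnmd summed over members was at 774 and 434 CPM in the mutant libraries, against 1767 and 659 CPM in wild type. Clec3b was at 473 and 443 CPM in the mutant libraries, against 1018 and 1095 CPM in wild type, and Mfap5 was at 185 and 210.2 CPM in the mutant libraries, against 419.9 and 394 CPM in wild type. Scx was at 97.2 and 102 CPM in the mutant libraries, against 195 and 176 CPM in wild type. For Clec3b, Mfap5 and Scx both mutant libraries lay below both wild type libraries, whereas for Tnmd the mutant library at day 13 lay above the wild type library at day 19. Dpt was at 492 and 535 CPM in the mutant libraries, against 440.1 and 959.6 CPM in wild type, and its mutant and wild type libraries overlapped too. Within the Tnmd or Scx-led set Tnmd was at 1549 and 1106 CPM in the mutant libraries, against 2974 and 1908 CPM in wild type, and within the Dpt, Clec3b or Mfap5-led set Clec3b was at 806 and 711 CPM in the mutant libraries, against 2147 and 1499.9 CPM in wild type. Fewer cells of a high type and less RNA per cell cannot be told apart in a summed level, and the limit of 5 acts on these values, so they carry no test.

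The labelled target, Sox9, did not pass the genotype test in the members. It was at 106 and 98.9 CPM in the mutant libraries, against 104 and 92.7 CPM in wild type (log2 fold change 0.11 ± 0.19 SE, edgeR adjusted p = 0.883; chromosome 11, 112782224 to 112787760, plus strand, GRCm38). In chondrocyte barcodes of the same libraries Sox9 was at 201 and 178 CPM in the mutant libraries, against 357 and 452 CPM in wild type, and in neutrophil barcodes, which should lack it, at 47.3 and 24.3 CPM in the mutant libraries, against 31.1 and 4.9 CPM in wild type. The counts are tags near the 3′ ends of transcripts and the deleted exons are not given, so the level may not report the deletion. Acan, the gene that drives the recombinase, was at 348 and 268 CPM in the mutant libraries, against 664 and 279.5 CPM in wild type in members (log2 fold change -0.46 ± 0.23 SE, edgeR adjusted p = 0.411).

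Members of the mutant libraries differed from wild type members in genes of many roles, among them Klk1, Aqp5 and Nppc among those higher and Tppp3 and Itih5 among those lower. UMIs were summed over the members of each library and fitted with genotype and age in edgeR's quasi-likelihood test, with Benjamini-Hochberg adjustment over 9850 genes. At an adjusted p under 0.05, 367 genes (3.73%) passed, 263 higher (2.67%) and 104 lower (1.06%) in the mutant, and 5 of the 367 were genes of the rule. Without the Pi16-led barcodes 318 of 9625 genes passed (3.3%), 209 higher (2.17%) and 109 lower (1.13%), of which 294 were shared with the first count. Each genotype had 1 library per age, so the 2 ages are its only repeat, and p-values measure the spread between these libraries. Fits with 1 library left out held genotype alone with no age term, and 1 genotype then had 1 library, so their calls are not given. Of the 367 genes, 361 of 361 tested kept their direction without the mutant library at day 13 and 363 of 367 without that at day 19. Without the wild type libraries these were 363 of 364 and 361 of 366. Such fits reuse libraries that made the calls, so kept directions are no separate support. With all 4 libraries and no age term, 6 genes passed. Among the 263 higher genes, 84 were at least 2-fold higher at both ages in neutrophil barcodes too and 92 in chondrocyte barcodes. Among the 104 lower genes, 8 were lower to the same extent in neutrophil barcodes and 19 in chondrocyte barcodes. How many of all 9850 genes differed by as much in those barcodes was not counted, so these counts are a description.

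**Figure D3:**
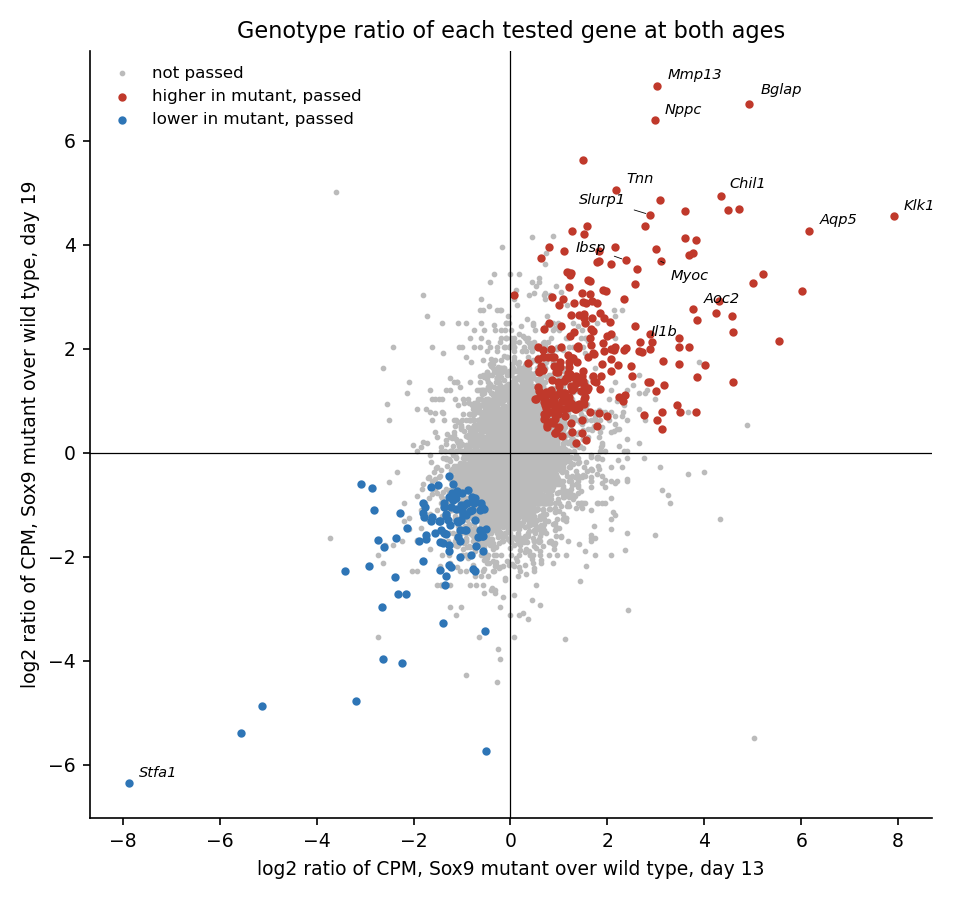
Log2 ratio of CPM in mutant over wild type members at day 13 (horizontal axis) and day 19 (vertical axis) for each tested gene, with genes that passed the additive test in red (higher in the mutant) or blue (lower) and 1 library per genotype and age. Klk1 and Aqp5 lie far to the upper right and Stfa1 to the lower left, and most genes lie near 0 on both axes.

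Klk1, tissue kallikrein, a serine protease that releases kinins, was among the 12 genes ranked highest (chromosome 7, 44225360 to 44229618, plus strand, GRCm38). Members held 682 and 137 UMIs of it in the mutant libraries and none in wild type, where a limit of 3 UMIs per library gives at least 239.7-fold and at least 23.5-fold higher levels (edgeR adjusted p = 8.58e-10 without the Pi16-led barcodes, not called by DESeq2). The UMIs came from few cells. In the Dpt, Clec3b or Mfap5-led set, 13 of 156 and 9 of 141 mutant barcodes held Klk1 (8.33%, 4.51% to 13.8%, and 6.38%, 2.96% to 11.8%). In wild type 0 of 159 and 0 of 58 did, which allows shares of up to 3 counts of the total, 1.89% and 5.17%. With every barcode thinned to 2000 UMIs the shares were 7.86% and 4.24% in the mutant libraries, against 0 of 144 and 0 of 52 in wild type. In neutrophil barcodes, a measure of free RNA, Klk1 was found in 0 of 515 and 2 of 1596 in the mutant libraries, against 0 of 264 and 0 of 557 in wild type. A single barcode held 284 of the 682 UMIs at day 13. The neighbouring family genes Klk1b21, Klk1b24 and Klk1b27 likewise had UMIs in mutant members only, 183 and 50 for Klk1b21. Outside the members, Klk1 was in 16 of 1966 and 14 of 1805 mutant chondrocyte barcodes, against 0 of 4408 and 0 of 1063 in wild type. A single mutant chondrocyte barcode at day 19 held 166 UMIs of it. Among chondrocyte barcodes the neighbouring family genes too were found in the mutant libraries only. The sequences of this family are alike, so the split of tags among its genes is uncertain. The strain of the libraries is not given, so genotype and any difference in strain cannot be told apart for these genes.

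Aqp5, a water channel of secretory epithelia, was often in the same barcodes. It was at 121 and 104 CPM in the mutant libraries, against 1.68 and 5.38 CPM in wild type (log2 fold change 5.43 ± 0.36 SE, edgeR adjusted p = 5e-07), and 11 of the 13 Klk1 barcodes of the Dpt, Clec3b or Mfap5-led set at day 13 and 6 of 9 at day 19 held it. That is 61.1% and 46.2% of the barcodes with Aqp5. Myoc (myocilin), a secreted glycoprotein, was at 119 and 311 CPM in the mutant libraries, against 13.9 and 24.2 CPM in wild type (log2 fold change 3.41 ± 0.24 SE, edgeR adjusted p = 8.63e-07). In that set 36 of 156 and 28 of 141 mutant barcodes held Myoc (23.1% and 19.9%). Of the Klk1 barcodes 1 of 13 held it at day 13 and 3 of 9 at day 19, against the 23.1% and 19.9% of the whole set. These counts are small, and whether Klk1 and Myoc shared barcodes more or less often than that was not tested. In wild type, 8 of 159 and 3 of 58 held Myoc. Neutrophil barcodes ran the same way, with a UMI of Myoc in 25 of 515 and 86 of 1596 in the mutant libraries, against 0 of 264 and 2 of 557 in wild type. Myoc was also higher in mutant chondrocyte barcodes, at 173 and 212 CPM in the mutant libraries, against 4.5 and 10.4 CPM in wild type. The part of free RNA in its gain was not tested. A UMI of Aqp5 was in 0.966% and 1.27% of mutant chondrocyte barcodes, against 4.92% and 1.98% of wild type ones.

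Nppc was highest in the Tnmd or Scx-led set. The gene encodes C-type natriuretic peptide, a hormone that promotes growth of cartilage in the long bones, and over all members it was at 126 and 341 CPM in the mutant libraries, against 16 and 4.03 CPM in wild type (log2 fold change 3.94 ± 0.41 SE, edgeR adjusted p = 5.28e-05; chromosome 1, 86666291 to 86670571, minus strand, GRCm38). In that set it was at 269 and 919 CPM in the mutant libraries, against 27 and 12.6 CPM in wild type (log2 fold change 4.09, edgeR adjusted p = 0.00452). There 20 of 131 and 28 of 79 mutant barcodes held a UMI, against 14 of 166 and 2 of 25 in wild type (15.3% and 35.4%, against 8.43% and 8%). Thinned to 2000 UMIs the shares were 13.7% and 31.4% in the mutant libraries, against 4.32% and 0 of 23 in wild type. DESeq2 did not call Nppc over all members. Nppc stayed at or under 2.01 CPM in neutrophil barcodes. Aoc2, an amine oxidase, was at 155 and 82.3 CPM in the mutant libraries, against 11.4 and 12.1 CPM in wild type (log2 fold change 3.49 ± 0.27 SE, edgeR adjusted p = 2.59e-06), and at 285 and 130.2 CPM in the mutant libraries, against 19.7 and 37.9 CPM in wild type in the Tnmd or Scx-led set. A UMI of Aoc2 was in 39 of 131 and 10 of 79 mutant barcodes of that set, against 14 of 166 and 4 of 25 in wild type. Nppc and Aoc2 shared 0 and 1 barcodes of the set in the mutant libraries, and whether that is fewer than their shares would give was not tested. Angptl7 was at 876 and 615 CPM in the mutant libraries, against 219 and 376 CPM in wild type (log2 fold change 1.44 ± 0.24 SE, edgeR adjusted p = 0.00263), and Igf1, the insulin-like growth factor, was at 1419 and 1591 CPM in the mutant libraries, against 714 and 1144 CPM in wild type (log2 fold change 0.80 ± 0.20 SE, edgeR adjusted p = 0.0353). For Angptl7 and Igf1 both mutant libraries lay above both wild type libraries over all members. In the Dpt, Clec3b or Mfap5-led set Igf1 was at 1949 and 1206 CPM in the mutant libraries, against 1297 and 1348 CPM in wild type, where the genotypes overlapped (log2 fold change 0.34, edgeR adjusted p = 0.501), and 67.3% and 59.6% of mutant barcodes held it, against 70.4% and 77.6% in wild type. In the Tnmd or Scx-led set 55.7% and 72.2% of mutant barcodes held Igf1, against 56% and 76% in wild type.

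Genes of bone formed a further part of the 12 ranked gains. Bglap (osteocalcin), a calcium-binding protein of osteoblasts, was at 88.7 and 139.7 CPM in the mutant libraries, against 2.95 and 1.34 CPM in wild type (log2 fold change 5.33 ± 0.35 SE, edgeR adjusted p = 5e-07). Its near-identical neighbours Bglap2 and Bglap3 make the split of its tags uncertain. Ibsp, bone sialoprotein, was at 861 and 279 CPM in the mutant libraries, against 165 and 21.5 CPM in wild type (log2 fold change 2.84 ± 0.27 SE, edgeR adjusted p = 2.48e-05). Mmp13, a collagenase of hypertrophic cartilage and bone, was at 225 and 179 CPM in the mutant libraries, against 27.8 and 1.34 CPM in wild type (log2 fold change 3.62 ± 0.37 SE, edgeR adjusted p = 4.94e-05). At day 19 the wild type values rest on 1 UMI of Bglap and 1 of Mmp13. The same direction was seen in neutrophil barcodes, with Bglap at 216 and 169 CPM in the mutant libraries, against 4.97 and 0.774 CPM in wild type, Ibsp at 1654 and 526 CPM in the mutant libraries, against 55.9 and 10.1 CPM in wild type, and Mmp13 at 211 and 144 CPM in the mutant libraries, against 44.7 and 0.258 CPM in wild type. The osteoblast list as a whole summed to 1737 and 1324 CPM in the mutant libraries, against 684 and 569.8 CPM in wild type in members, and to 2730.1 and 1165 CPM in the mutant libraries, against 369 and 95 CPM in wild type in neutrophil barcodes. The part of free RNA in these gains was not tested. Of 7 osteoblast genes tested (median log2 fold change 1.49), Bglap, Ibsp and Alpl were higher, Phex was lower, and 3 did not pass.

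The rest of the 12 were Chil1, Slurp1, Tnn and Il1b. Chil1, a chitinase-like secreted protein, was at 103 and 164 CPM in the mutant libraries, against 5.05 and 5.38 CPM in wild type (log2 fold change 4.57 ± 0.28 SE, edgeR adjusted p = 4.14e-07). In neutrophil barcodes it was at 279 and 352 CPM in the mutant libraries, against 303 and 301 CPM in wild type. A UMI of Chil1 was in 46.4% and 47.3% of mutant chondrocyte barcodes, against 29.1% and 28.5% of wild type ones. Without cartilage-rich members Chil1 had too few UMIs to test. Slurp1, a secreted protein of the Ly6 family, was at 80.3 and 96.1 CPM in the mutant libraries, against 10.9 and 4.03 CPM in wild type (log2 fold change 3.31 ± 0.32 SE, edgeR adjusted p = 2.7e-05). Tnn, a tenascin of periosteum, was at 138 and 134 CPM in the mutant libraries, against 30.7 and 0 CPM in wild type (log2 fold change 2.93 ± 0.45 SE, edgeR adjusted p = 0.00157). Il1b, the inflammatory cytokine, was at 56.4 and 147 CPM in the mutant libraries, against 8.84 and 33.6 CPM in wild type in members (log2 fold change 2.45 ± 0.24 SE, edgeR adjusted p = 2.88e-05). In the Pi16-led barcodes it was at 2734 and 1838 CPM in the mutant libraries, against 1144 and 2124 CPM in wild type. It still passed without those barcodes (log2 fold change 2.84, edgeR adjusted p = 0.00763). Once members with a sum of 4 neutrophil genes at 20 or more were left out, Il1b had too few UMIs to test. In fits of genotype alone with 1 library left out, all 12 gains kept their direction each time. The ranking had asked for the same direction at both ages, and these fits reuse the same libraries, so this adds no separate support. With all 4 libraries and no age term, 3 of the 12 passed, Bglap, Chil1 and Aqp5. DESeq2 called 9 of the 12, all but Klk1, Nppc and Tnn.

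The 12 genes ranked lowest were led by Stfa1, and the other 11 differed by less. Stfa1 (stefin A1), a cysteine protease inhibitor of neutrophils, was at 0.444 and 0.692 CPM in the mutant libraries, against 104 and 56.4 CPM in wild type (log2 fold change -7.09 ± 0.44 SE, edgeR adjusted p = 4.14e-07). The mutant libraries held 1 UMI each, so the log2 ratio had a counting interval of -13.19 to -5.39 at day 13 and -11.69 to -3.79 at day 19. In neutrophil barcodes it was at 147 and 4.59 CPM in the mutant libraries, against 11634 and 1399 CPM in wild type, and without the Pi16-led barcodes too few UMIs were left to test it. The stefin A genes are near-identical copies, so its count is uncertain. For Stfa1 too, genotype and any difference in strain cannot be told apart. Tppp3, a tubulin-binding protein known from the sheath of mouse tendons, was at 319 and 279 CPM in the mutant libraries, against 798 and 827 CPM in wild type (log2 fold change -1.38 ± 0.18 SE, edgeR adjusted p = 0.000459; chromosome 8, 105467493 to 105471526, minus strand, GRCm38). It fell in the Dpt, Clec3b or Mfap5-led set, where it was at 478 and 414 CPM in the mutant libraries, against 1599 and 963 CPM in wild type (log2 fold change -1.37, edgeR adjusted p = 0.0116). A UMI of Tppp3 was in 59% and 43.3% of mutant barcodes of that set, against 85.5% and 79.3% in wild type, and in 42.1% and 36.4% against 78.5% and 65.4% after thinning. Itih5, a hyaluronan-linked inhibitor chain of the extracellular matrix, was at 259.6 and 227 CPM in the mutant libraries, against 719 and 562 CPM in wild type (log2 fold change -1.33 ± 0.19 SE, edgeR adjusted p = 0.000709). Pamr1, a secreted protein with a peptidase-like domain, was at 58.6 and 49.8 CPM in the mutant libraries, against 183 and 124 CPM in wild type (log2 fold change -1.44 ± 0.20 SE, edgeR adjusted p = 0.000636). Ckb, a creatine kinase, was at 268 and 236 CPM in the mutant libraries, against 733 and 583 CPM in wild type (log2 fold change -1.31 ± 0.19 SE, edgeR adjusted p = 0.000736). In each of these 4 genes both mutant libraries lay below both wild type libraries.

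The other members of the lower 12 were Akap12, Adgrg2, Pxdc1, Cd55, Acp1, Col6a6 and Tomm22. Cd55, a complement regulator of the joint lining, was at 37.3 and 45 CPM in the mutant libraries, against 91.3 and 110.2 CPM in wild type (log2 fold change -1.23 ± 0.20 SE, edgeR adjusted p = 0.0024). Col6a6, a collagen VI chain, was at 25.3 and 11.1 CPM in the mutant libraries, against 59.3 and 51.1 CPM in wild type (log2 fold change -1.52 ± 0.27 SE, edgeR adjusted p = 0.004). In fits of genotype alone with 1 library left out, all 12 lower genes kept their direction each time. As for the gains, the ranking and the reuse of libraries nearly fix this result, so it adds no separate support. With all 4 libraries and no age term, only Stfa1 passed. DESeq2 called 5 of the 12. Without the Pi16-led barcodes 11 of 11 that could be tested passed. Vcan, a large proteoglycan of soft connective tissue and one of the 12 that set the members apart from other collagen-rich barcodes, was at 263 and 210.2 CPM in the mutant libraries, against 534 and 519 CPM in wild type (log2 fold change -1.09 ± 0.18 SE, edgeR adjusted p = 0.00236).

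**Figure D4:**
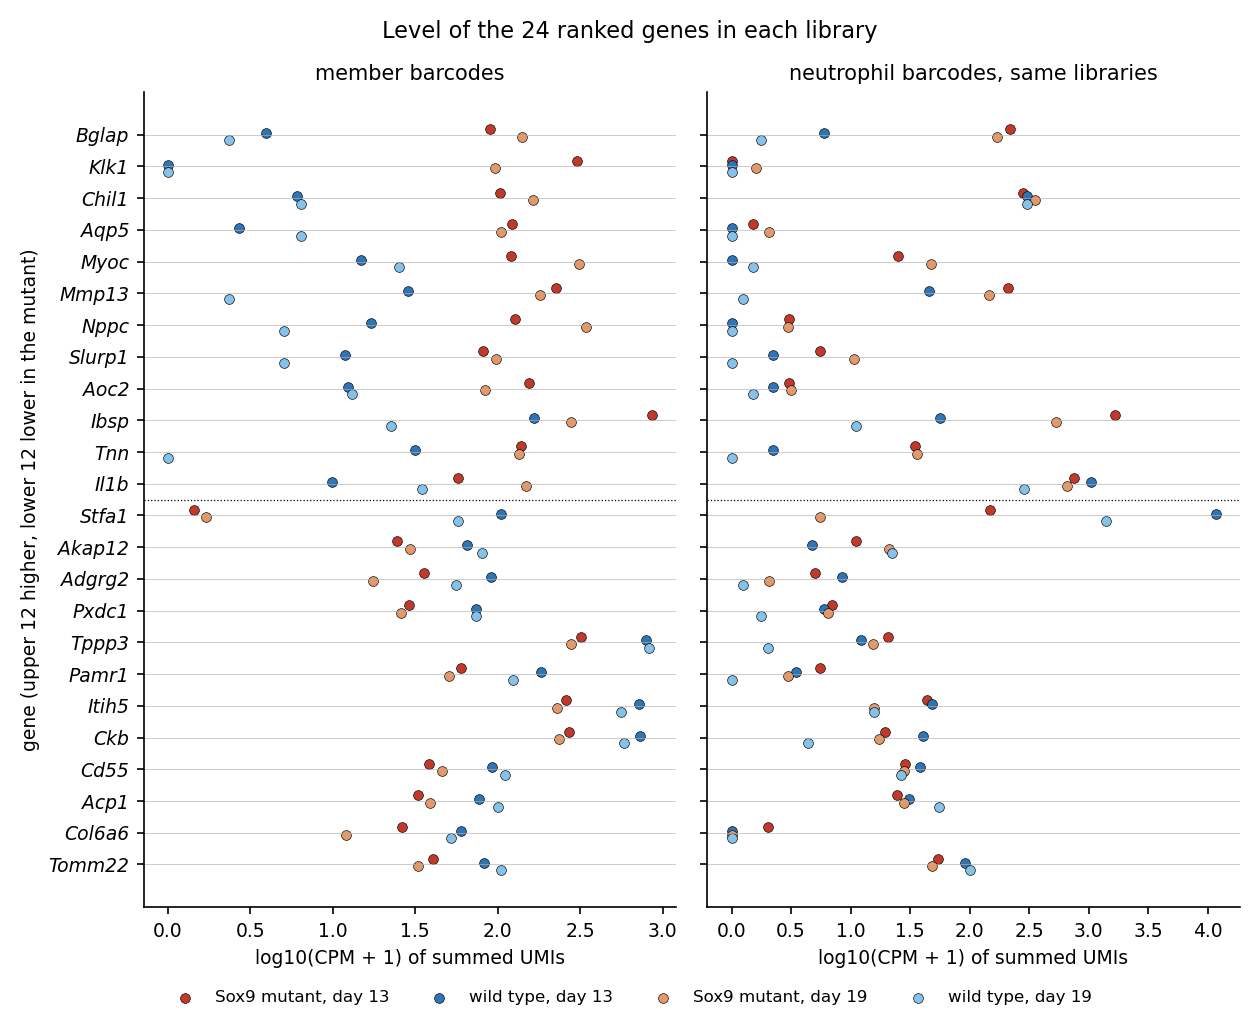
Level of the 12 genes ranked highest and the 12 ranked lowest by genotype, as log10(CPM + 1) of summed UMIs, in member barcodes (left) and in neutrophil barcodes (right), with 1 point per library. Klk1, Aqp5 and Nppc are high in mutant members and near 0 in neutrophil barcodes, while Bglap, Ibsp, Mmp13 and Stfa1 differ in both panels.

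Some of the genes that passed were found almost only in 1 genotype. Of the 367, 23 had at most 2 UMIs in both libraries of a genotype, 18 of them with UMIs in mutant members and 5 in wild type members. C1rb had 75 and 50 UMIs in the mutant libraries, against 0 and 1 in wild type. C1ra and C1s1, which lie near it on chromosome 6 and encode the proteases that start the classical complement pathway, ran the other way. C1ra had 1 and 0 UMIs in the mutant libraries, against 37 and 45 in wild type (chromosome 6, 124512405 to 124523443, plus strand, GRCm38). C1s1 had 1 and 0, against 50 and 65 (chromosome 6, 124530345 to 124542359, minus strand). In the Dpt, Clec3b or Mfap5-led set a UMI of C1rb was in 28.2% and 22% of mutant barcodes, against 0 of 159 (which allows up to 1.89%) and 1.72% of wild type barcodes. Thinned to 2000 UMIs it was in 15% and 8.47% of mutant barcodes, against 0 of 144 and 0 of 52 in wild type. C1ra was in 0.641% and 0 of 141 (which allows up to 2.13%) of mutant barcodes, against 11.3% and 37.9% of wild type barcodes. Chondrocyte barcodes showed the same direction, with C1ra in 0.763% and 0.388% of mutant and 8.92% and 6.4% of wild type barcodes. C1ra and C1rb are near copies, so tags may be split between them, and neither level is certain. Gal (galanin, a neuropeptide) had 64 and 149 UMIs in the mutant libraries and none in wild type members. In the Dpt, Clec3b or Mfap5-led set 6 of 141 mutant barcodes held Gal at day 19, and a single one held 112 of the 149 UMIs. Gal was also found outside the members in wild type, in 2.52% and 4.23% of chondrocyte and 1.14% and 1.8% of neutrophil barcodes. Adh1, an alcohol dehydrogenase, had 69 and 29 UMIs, and Pgr, the progesterone receptor, had 31 and 11, with none in wild type members. Trim12c had none in the mutant libraries, against 20 and 12 UMIs in wild type. These genes were picked out after their values were seen. Klk1, Klk1b21, Klk1b24, Klk1b27 and Stfa1, described above, are among the 23 as well. The strain of the libraries is not given, so the genotype and any difference in strain cannot be told apart for any of the 23.

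The lists of genes by role are set beside all genes tested, of which 2.67% were higher and 1.06% lower, and 1343 of 9850 were at an unadjusted p under 0.05. Genes of the rule are left out of all list counts, except where stated. The median log2 fold change over all genes tested was -0.00245. Of 12 universal fibroblast genes tested, 2 were lower (Cd34 and Sema3c), none was higher, 6 were at an unadjusted p under 0.05, and the median log2 fold change was -0.46. Cd34, a surface sialomucin, was at 122 and 132 CPM in the mutant libraries, against 179 and 281 CPM in wild type (log2 fold change -0.74 ± 0.18 SE, edgeR adjusted p = 0.0339). Of 10 tendon and ligament genes 1 was lower, Kera, 4 were at an unadjusted p under 0.05, and the median was -0.14. Within the Dpt, Clec3b or Mfap5-led set alone, 3 of 10 tested genes of this list were higher and none lower. The 3 were Comp, Cilp2 and Fibin, and the median there was 0.98, with genes of the rule not left out. Kera was at 126 and 104 CPM in the mutant libraries, against 225 and 224 CPM in wild type (log2 fold change -0.90 ± 0.18 SE, edgeR adjusted p = 0.0086), and its log2 difference was 0.0101 once members rich in cartilage RNA were left out. Of 9 genes of synovium and joint surface 1 was lower, Cd55, with a median of -0.29. Prg4, the lubricin of the joint surface, was at 481 and 767 CPM in the mutant libraries, against 409 and 1705 CPM in wild type (log2 fold change -0.39 ± 0.25 SE, edgeR adjusted p = 0.555), with the wild type library at day 19 above the rest. Of 10 genes of perichondrium and periosteum 3 were higher, Sfrp2, Tnn and Omd, and the median was -0.09. The log2 difference of Sfrp2 was -0.77 without members rich in cartilage RNA.

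The structural matrix was counted in 5 lists. At an unadjusted p under 0.05 were 4 of 15 fibrous collagens, 7 of 15 genes of elastic fibres and microfibrils, 3 of 11 small leucine-rich proteoglycans, 1 of 14 genes of collagen folding and crosslinking and 7 of 15 matricellular genes. Of 15 fibrous collagens tested (median -0.07) 1 was higher, Col16a1, at 718 and 526 CPM in the mutant libraries, against 487 and 128 CPM in wild type (log2 fold change 1.29 ± 0.29 SE, edgeR adjusted p = 0.0206). Of 15 genes of elastic fibres and microfibrils (median -0.09) 2 were lower. Mfap4, a microfibril-binding glycoprotein, was at 236 and 185 CPM in the mutant libraries, against 506 and 310.5 CPM in wild type (log2 fold change -0.87 ± 0.19 SE, edgeR adjusted p = 0.0184), and its log2 difference was 0.0307 within the Dpt, Clec3b or Mfap5-led set. Ltbp2, which binds fibrillin microfibrils, was at 7.99 and 11.1 CPM in the mutant libraries, against 27.8 and 47 CPM in wild type (log2 fold change -1.86 ± 0.32 SE, edgeR adjusted p = 0.00287). Of 11 small leucine-rich proteoglycans (median -0.07) Omd was higher and Kera lower, and of 14 genes of collagen folding and crosslinking (median -0.06) Loxl2, a lysyl oxidase, was lower, at 239.6 and 194 CPM in the mutant libraries, against 487 and 387 CPM in wild type (log2 fold change -0.95 ± 0.18 SE, edgeR adjusted p = 0.00676). Of 15 matricellular genes (median -0.10) 4 were higher and none lower: Tnn, Thbs1, Ccn1 and Ccn2. Ccn1, a target of YAP and mechanical load, was at 359 and 359.6 CPM in the mutant libraries, against 161 and 183 CPM in wild type (log2 fold change 1.14 ± 0.18 SE, edgeR adjusted p = 0.00172), and Ccn2, also called CTGF, was at 432 and 418 CPM in the mutant libraries, against 125 and 292 CPM in wild type (log2 fold change 1.23 ± 0.23 SE, edgeR adjusted p = 0.00674). Thbs1 was at 276 and 315 CPM in the mutant libraries, against 143 and 145 CPM in wild type in members (log2 fold change 1.09 ± 0.18 SE, edgeR adjusted p = 0.00277), and at 1554 and 1631 CPM in the mutant libraries, against 2687 and 1439 CPM in wild type in neutrophil barcodes.

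Matrix proteases were the matrix list with the most gains by count over all members. Without the Pi16-led barcodes 5 of 20 proteases and inhibitors and 5 of 15 matricellular genes were higher. Of 20 proteases and inhibitors tested 6 were higher, among them Mmp2, Mmp9, Mmp13 and Adamts2, none was lower, and the median log2 fold change was 0.28. Mmp2, a gelatinase of fibroblasts, was at 615 and 539 CPM in the mutant libraries, against 350.1 and 359 CPM in wild type (log2 fold change 0.77 ± 0.18 SE, edgeR adjusted p = 0.0259). Adamts2, which trims the N-propeptide of procollagen, was at 383 and 367 CPM in the mutant libraries, against 218 and 214 CPM in wild type (log2 fold change 0.86 ± 0.18 SE, edgeR adjusted p = 0.0118). Mmp9, a gelatinase that neutrophils store, did not pass without the Pi16-led barcodes (log2 fold change 0.37, edgeR adjusted p = 0.91).

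Among secreted signals, 2 of 9 chemokines and cytokines were higher, Cxcl14 and Ccl2, and the median was 0.70. Cxcl14 was at 588 and 676 CPM in the mutant libraries, against 372 and 226 CPM in wild type (log2 fold change 1.16 ± 0.24 SE, edgeR adjusted p = 0.00993). Of 8 insulin-like growth factor genes (median 0.12) 1 was higher, Igf1. Of 13 Wnt ligands and antagonists (median 0.37) Wnt16 and Sfrp2 were higher. Of 15 genes of BMP and TGF-β signalling (median 0.59) Tgfb2 and Id1 were higher, and the log2 difference of Id1 was -0.0999 among members with a rule sum of 10 or more. Of 12 FGF signalling genes (median 0.16) none passed edgeR's test, with 4 at an unadjusted p under 0.05. Tgfb2 was at 179.7 and 216 CPM in the mutant libraries, against 109 and 99.5 CPM in wild type (log2 fold change 0.96 ± 0.19 SE, edgeR adjusted p = 0.00993). Of 9 complement and acute phase genes (median 0.17) Lcn2 and Hp were higher and C1s1 and C1ra lower, and Hp did not pass without the Pi16-led barcodes (log2 fold change 2.11, edgeR adjusted p = 0.0547). Of 16 limb mesenchyme transcription factors (median 0.05) Prrx2 was higher, at 171 and 179 CPM in the mutant libraries, against 88.4 and 108 CPM in wild type (log2 fold change 0.91 ± 0.18 SE, edgeR adjusted p = 0.00865), and Meox1 lower, at 4.88 and 1.38 CPM in the mutant libraries, against 23.1 and 22.8 CPM in wild type (log2 fold change -2.67 ± 0.45 SE, edgeR adjusted p = 0.00297). Of 6 SOX factors (median 0.15) Sox6 was higher.

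The lists for cell types that the dissected tissue could add were also counted. Of 17 cartilage matrix genes tested (median -0.34) Cnmd, Snorc and Epyc were higher and Matn1 and Matn3 lower. Within the Dpt, Clec3b or Mfap5-led set alone 6 of 17 were higher and 0 lower. The median there was 0.57, with genes of the rule not left out. Without members rich in cartilage RNA the log2 difference was -0.63 for Epyc and -0.0907 for Snorc. Cnmd (chondromodulin), the close relative of Tnmd, was at 124 and 147 CPM in the mutant libraries, against 77.4 and 67.2 CPM in wild type (log2 fold change 0.93 ± 0.20 SE, edgeR adjusted p = 0.0164). Of 8 neutrophil genes 7 were higher and Mpo lower, with a median log2 fold change of 2.30. The list summed to 3986 and 17481 CPM in the mutant libraries, against 1229 and 2763 CPM in wild type in members. None of 3 endothelial genes (median 0.07) and none of 6 other blood genes (median -0.10) passed edgeR's test, with 0 and 1 at an unadjusted p under 0.05. Of 7 mural genes (median -0.19) Acta2 was lower. Lepr was higher among 6 genes of marrow stroma (median 0.45) and did not pass without the Pi16-led barcodes (log2 fold change 1.60, edgeR adjusted p = 0.0501). Of 2 muscle genes Des was higher, and the 1 Schwann cell gene tested did not pass. Of 16 immediate early and heat shock genes (median 0.48) Fosb and Ier3 were higher, of 9 interferon genes (median 0.09) Ifitm1 was higher but had too few UMIs to test without the Pi16-led barcodes, and of 16 cell cycle genes (median -0.09) Ccnb1 was lower.

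**Figure D5:**
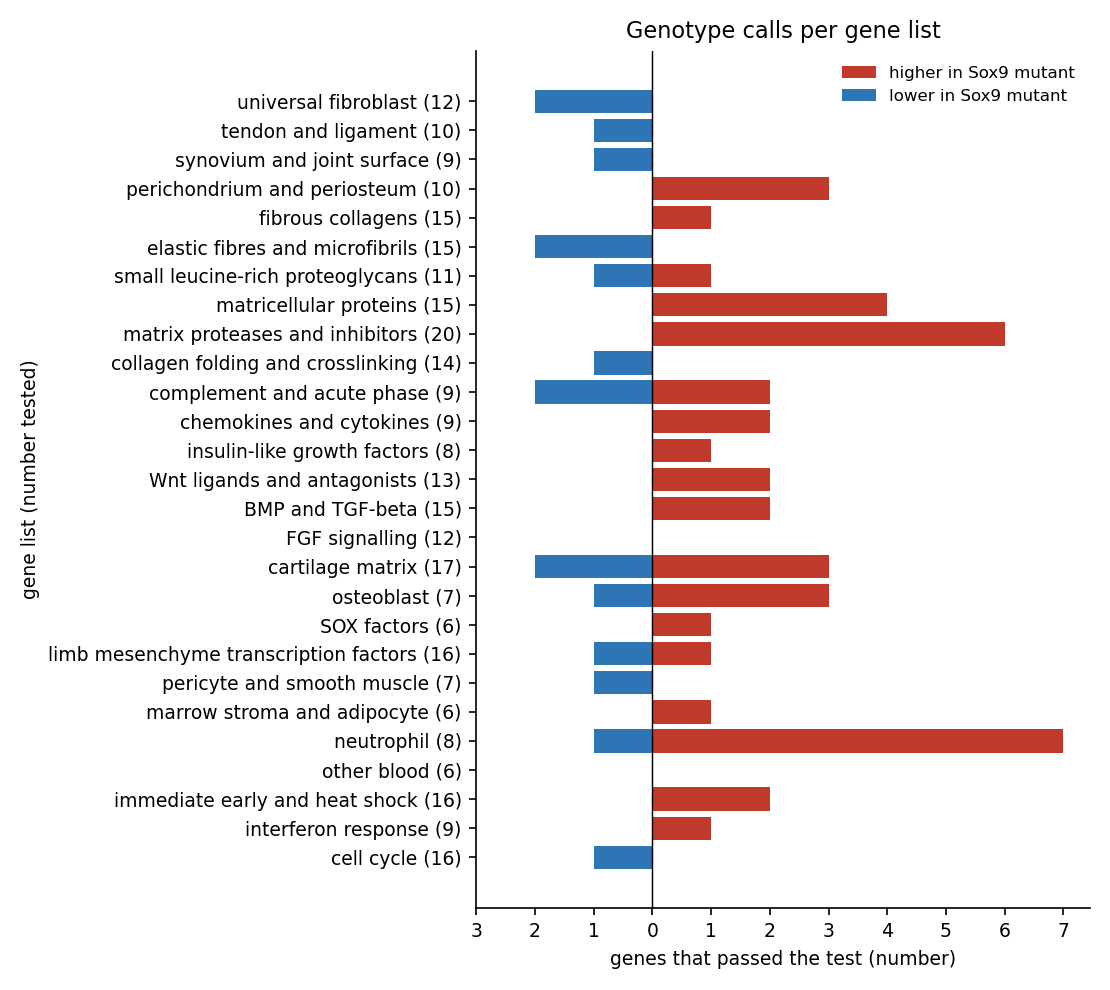
Number of genes in each list that passed the genotype test, higher in the mutant to the right and lower to the left, for lists with 5 or more tested genes, with the number tested in parentheses and genes of the rule left out. Over all members the neutrophil list has 7 higher genes and the protease list 6, while the fibroblast and tendon lists have 2 and 1 lower genes and none higher.

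The sets were also fitted alone. In the Dpt, Clec3b or Mfap5-led set 172 of 8040 genes passed (2.14%), 126 higher (1.57%) and 46 lower (0.572%). Of the ranked genes that could be tested there, 10 of 11 gains and 6 of 11 losses passed. For age 26 genes passed there (0.323%), 23 higher (0.286%) and 3 lower (0.0373%) at day 19. Comp, a pentameric matrix protein of tendon and cartilage, was higher there, at 2236 and 3214 CPM in the mutant libraries, against 1004 and 1003 CPM in wild type (log2 fold change 1.53, edgeR adjusted p = 0.00725). Postn (periostin), a matricellular protein of periosteum, was lower, at 543 and 339 CPM in the mutant libraries, against 1042 and 971 CPM in wild type (log2 fold change -1.10, edgeR adjusted p = 0.0246). In the Tnmd or Scx-led set 55 of 6684 genes passed (0.823%), 35 higher (0.524%) and 20 lower (0.299%). Here 5 of 9 ranked gains and 4 of 10 ranked losses that could be tested passed. For age 5 genes passed there, all higher at day 19 (0.0748%). Igf1 was at 880.4 and 2471 CPM in the mutant libraries, against 301 and 771 CPM in wild type in that set (log2 fold change 1.61, edgeR adjusted p = 0.0368). Whether the genotype difference of a gene itself differed between the sets was not tested.

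Between the ages, members at day 19 were higher in genes of blood cells and of complement, and the 6 genes ranked lowest were Dlk1, H19, Tnc, Ibsp, Nrep and Tspan2. In the same fit, 172 genes (1.75%) passed for age, 153 higher (1.55%) and 19 lower (0.193%) at day 19. Without the Pi16-led barcodes 111 of 9625 passed (1.15%), 93 higher (0.966%) and 18 lower (0.187%). Fits with 1 library left out held age alone with no genotype term, and 1 age then had 1 library, so their calls are not given. Of the 172 genes, 169 of 172 tested kept their direction without the mutant library of day 13 and 172 of 172 without the wild type one. For day 19 these were 153 of 168 and 167 of 168. Such fits reuse libraries that made the calls, so kept directions are no separate support. Car2, carbonic anhydrase of red cells and osteoclasts, was at 102 CPM in the mutant library and 156 CPM in the wild-type library at day 19, against 15.5 and 23.1 CPM at day 13 (log2 fold change 2.67 ± 0.22 SE, edgeR adjusted p = 2.17e-05). Slc4a1, the anion exchanger of red cells, was at 68.5 CPM in the mutant library and 65.9 CPM in the wild-type library at day 19, against 10.6 and 10.5 CPM at day 13 (log2 fold change 2.61 ± 0.26 SE, edgeR adjusted p = 0.000101). Slc25a37, an iron carrier of red cell precursors, the leukocyte genes Rac2 and Coro1a, and Lmnb1 made up the rest of the 6 ranked highest. Hbb-bs stood at 8334 CPM in the mutant library and 19722 CPM in the wild-type library at day 19, against 925 and 3188 CPM at day 13.

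Dlk1, a membrane protein of immature mesenchyme, was at 94 CPM in the mutant library and 33.6 CPM in the wild-type library at day 19, against 210.3 and 175 CPM at day 13 (log2 fold change -1.67 ± 0.26 SE, edgeR adjusted p = 0.00239). H19, an imprinted RNA that declines after birth in many tissues, was at 410.1 CPM in the mutant library and 129 CPM in the wild-type library at day 19, against 788 and 508 CPM at day 13 (log2 fold change -1.47 ± 0.25 SE, edgeR adjusted p = 0.00482). Tnc, tenascin C of growing tendon, was at 154 CPM in the mutant library and 134 CPM in the wild-type library at day 19, against 265 and 314 CPM at day 13 (log2 fold change -1.05 ± 0.20 SE, edgeR adjusted p = 0.0108). In these 3 genes both libraries of day 19 lay below both of day 13. The makeup of the members moved with age as well: Tnmd or Scx led 79 of 275 mutant and 25 of 91 wild type members at day 19, against 131 of 312 and 166 of 333 at day 13. In that set Tnc was at 269.9 CPM in the mutant library and 307 CPM in the wild-type library at day 19, against 434 and 414 CPM at day 13, and in the set led by Dpt, Clec3b or Mfap5 at 93.8 CPM in the mutant library and 54.5 CPM in the wild-type library at day 19, against 122 and 181 CPM at day 13. Fitted within either set, 0 of the 6 genes ranked lowest passed edgeR's test for age, and of the 6 ranked highest 4 passed in the set led by Dpt, Clec3b or Mfap5 and 0 in the set led by Tnmd or Scx. The part of the sets' shares in these differences was not tested. Of the structural genes, Col12a1, which coats collagen I fibrils, was at 469 CPM in the mutant library and 188 CPM in the wild-type library at day 19, against 684 and 569 CPM at day 13 (log2 fold change -1.09 ± 0.25 SE, edgeR adjusted p = 0.0376). Eln (elastin) was at 47.7 CPM in the mutant library and 79.3 CPM in the wild-type library at day 19, against 153 and 115 CPM at day 13 (log2 fold change -1.18 ± 0.23 SE, edgeR adjusted p = 0.0135).

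Of 9 complement and acute phase genes tested 7 were higher at day 19, among them C3, C4b, Serping1 and Lcn2, with a median log2 fold change of 1.69, against 0.000495 over all genes, and 6 passed without the Pi16-led barcodes. Within the set led by Dpt, Clec3b or Mfap5, 7 genes of this list were tested and only C3 passed for age. Of the synovium and joint surface list, which holds Cilp and Prg4, none passed for age there, while Sfrp2 did. Serping1 was at 252 CPM in the mutant library and 433 CPM in the wild-type library at day 19, against 155 and 135 CPM at day 13 (log2 fold change 1.13 ± 0.21 SE, edgeR adjusted p = 0.00903), and at most 1.22 CPM in neutrophil barcodes. C4b was at 192 CPM in the mutant library and 274 CPM in the wild-type library at day 19, against 106 and 40.4 CPM at day 13 (log2 fold change 1.69 ± 0.30 SE, edgeR adjusted p = 0.00672). C3 was at 78.8 CPM in the mutant library and 106 CPM in the wild-type library at day 19, against 24 and 13.5 CPM at day 13 (log2 fold change 2.24 ± 0.27 SE, edgeR adjusted p = 0.000311), and neutrophil barcodes held it at 223 and 294 CPM at day 19 and 203 and 265 CPM at day 13. Cilp, a matrix protein of joint cartilage and fibroblasts, was at 179.8 CPM in the mutant library and 215 CPM in the wild-type library at day 19, against 58.1 and 79.9 CPM at day 13 (log2 fold change 1.47 ± 0.19 SE, edgeR adjusted p = 0.000561). Prg4 was at 767 CPM in the mutant library and 1705 CPM in the wild-type library at day 19, against 481 and 409 CPM at day 13 (log2 fold change 1.31 ± 0.25 SE, edgeR adjusted p = 0.0125), and Sfrp2, a secreted Wnt antagonist, was at 216 CPM in the mutant library and 118 CPM in the wild-type library at day 19, against 80.8 and 48.8 CPM at day 13 (log2 fold change 1.31 ± 0.19 SE, edgeR adjusted p = 0.00136). Of 8 neutrophil genes 6 were higher at day 19, as were 4 of 6 genes of other blood cells, among them Cd79a and Alas2.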

How the data were processed

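The labels' protocols describe Liberase digestion of the epiphyses, capture on a Chromium Single Cell v3 chip and NovaSeq sequencing. The authors deposited raw UMI counts for each gene and barcode. Per the file headers the matrices were written by software version 3.1.0, and the submitters' processing notes name Cell Ranger, Seurat 3 and build mm10. How the authors filtered barcodes is not stated there. By identifier, 31011 of 31053 features matched GENCODE M21 on GRCm38, and coordinates (counted from 1) come from there.

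The filter (500 genes or above, mitochondrial share up to 15%) left 30952 of 39898 barcodes. Doublets were kept and scored by Scrublet in scanpy 1.11.5, whose automatic threshold marked none in 2 libraries and so did not work there, and a fixed score of 0.25 was tried as well. UMIs of members were summed per library and tested in edgeR 4.0.16 (TMM scaling, filterByExpr, genotype plus age, quasi-likelihood F test, Benjamini-Hochberg threshold 0.05), with 1 residual degree of freedom, a common dispersion of 0.0229 and R 4.3.3. DESeq2 1.42.0 was an alternative. Nothing says that the libraries came from separate animals beyond their labels, so p-values measure only the spread between these 4 libraries, which may be technical. CPM are plain UMIs per 1000000 summed UMIs without TMM. A count of 0 was set to 3 UMIs per library for a bound on a fold, and intervals and bounds cover counting error only. On simulated counts with these means, library sizes and a dispersion of 0.023, the genotype fit over 9944 genes recovered 34% of genes changed 2-fold and 92% of those changed 4-fold, with 3 false calls. The simulated counts held no age effect and the same dispersion for every gene, so they do not give the error rate of the calls in the real data.

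Named by rule were the 12 genes highest and 12 lowest by the smaller log2 ratio of the 2 ages among genes that passed in the same direction at both ages and reached 50 CPM in the higher genotype (6 each way for age), up to 4 members per list, the 12 highest over chondrocyte and over other collagen barcodes, and Sox9, Acan, Cnmd and Prg4. Haemoglobin, ribosomal, mitochondrial, sex-linked and unnamed genes stayed out of rankings. Genes outside this rule, the split by leading gene, and the sets of genes present in 1 genotype were chosen after their values were seen. The members and the 30 gene lists were chosen with earlier results of these data known.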

Additional observations from a re-analysis of the deposited data

Results flagged for a closer look

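The values of 3 results differed between genotypes in opposite directions at the 2 ages, and none of these differences between ages was tested, since each age has 1 library per genotype. The share of members in the mutant minus that in wild type was -1.05 percentage points at day 13 and 1.51 at day 19, a change of 2.56. At day 13 it turned to 1.26 with Col2a1 under 20 and to 2.16 without cartilage-rich members, so the opposite directions depend on those members. Col14a1, a fibril-associated collagen of tendon and dermis, was at 638 and 376 CPM in the mutant libraries, against 519 and 1012 CPM in wild type at days 13 and 19, so its log2 ratio changed by -1.73. Prg4 was at 481 and 767 CPM in the mutant libraries, against 409 and 1705 CPM in wild type, so its log2 ratio changed by -1.39. In both genes the wild type library at day 19 was the highest of the 4.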

How the results depend on the processing

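The genotype count of 367 genes was 577 with no low-count filter, 67 by DESeq2, 6 without the age term, 129 at Col2a1 under 20, 61 when thinned to 2000 UMIs, 0 on the tendon side (521 at an unadjusted p under 0.05), 172 in Dpt, Clec3b or Mfap5-led and 55 in Tnmd or Scx-led members, and 23 to 451 with each library left out. It lay from 274 to 541 under the other settings (RLE factors, a sum of 10 or more, 1000 genes, doublets removed by either threshold, cartilage-rich, neutrophil-rich or Pi16-led members left out, the fibroblast side, or 2 or more UMIs of the 6 genes). The genes were not the same throughout. Of the 367, those that passed again ran from 198 at a sum of 10 or more to 367 with the fixed doublet score. Without cartilage-rich members 397 genes passed, of which 204 were shared, and on the fibroblast side 369 passed, of which 273 were shared. The age count of 172 was 383 with no filter, 44 by DESeq2, 80 at Col2a1 under 20 and 100 at 1000 genes. It was 319 and 271 with doublets removed by the automatic and the fixed threshold, 265 without neutrophil-rich members and 14 when thinned. On the fibroblast side it was 95, and on the tendon side 0 (359 at an unadjusted p under 0.05). It was 91 at 2 or more UMIs, 111 without Pi16-led members, and 26 and 5 in the sets led by Dpt, Clec3b or Mfap5 and by Tnmd or Scx.

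The difference in share at day 13, -1.05 percentage points, was 1.26 at Col2a1 under 20, 2.16 without cartilage-rich members and -1.81 at a sum of 10 or more. At day 19, 1.51 became 0.818 at Col2a1 under 20, 0.526 at a sum of 10, 1.07 at 1000 genes, 0.949 without cartilage-rich members, 1.05 without neutrophil-rich members, 2.08 over Ptprc-free barcodes and 1.07 without Pi16-led members.

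Log2 genotype differences that changed sign were Kera (0.0101), Sfrp2 (-0.77), Epyc (-0.63), Snorc (-0.0907) and Acan (0.42) without cartilage-rich members. At a sum of 10 or more they were Sfrp2 (-0.21), Id1 (-0.10), Snorc (-0.27), Sox9 (-0.0577) and Prg4 (0.0599). On the fibroblast side Mfap4 was 0.0784, Acan 0.24 and Prg4 0.12, and in Dpt, Clec3b or Mfap5-led members these were 0.0307, 0.33 and 0.14. Sox9 was -0.10 at Col2a1 under 20, -0.21 thinned, -0.19 on the tendon side and -0.11 in Tnmd or Scx-led members. With each library left out and no age term, Sox9 ran over -0.0315 to 0.29, Acan over -1.12 to 0.28 and Prg4 over -1.31 to 0.60. There the sign changed for Sox9 and Prg4 without the wild type library at day 19 and for Acan without that at day 13. The cause of these changes was not tested. No paired analysis was possible because each genotype and age has 1 library, beyond the age term that the fit already holds.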
